A study of Mus musculus with 36 samples.

Results

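The SLC25 family comprises the carrier proteins that move metabolites across the inner membrane of mitochondria, and its members were followed here through heart development. Members were taken as every gene whose symbol on the array starts with *Slc25a* and a number, apart from *Slc25a20*, and each was read from the probe set with the highest mean over all arrays. This gave 44 of the 20701 genes on the array, and 33 of the 44 had a stage mean above 5 on the log2 scale, the limit above which the study counted a gene as expressed. The 44 genes are covered by 90 probe sets, 22 of the genes have 1 probe set, and all 44 were found in the RefSeq annotation of GRCm38.p6.

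Hearts of OF1 mice, an outbred strain, were collected without any treatment on every day of gestation between E10.5 and E19.5, and from young adult (10 weeks) and old adult animals, and their total RNA was hybridized to Affymetrix Mouse430 2.0 arrays, 1-colour arrays with 45101 probe sets. The old adults were 14 months old according to the sample labels, and the methods of the study give a younger age. The 36 arrays comprise 3 for each of 12 stages. The first 2 stages, E10.5 and E11.5, hold mixed-sex arrays, and every later stage holds a female, a male and a mixed array, the last a pool of hearts of both sexes. Values are log2 intensities normalized by robust multi-array average, and differences are given as later minus earlier stage. The extraction text of the labels names liver, whereas the tissue label is heart. None of 9 liver markers had a mean above 5 at any embryonic stage or in old adult and 1 did in young adult, while 8 of 8 cardiomyocyte markers found on the array did at each of the 12 stages. In whole hearts, fewer cells of a type and less RNA per cell cannot be told apart.

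Most carriers exchange 1 substrate of the mitochondrial matrix for another in the cytosol, and so link ATP export, phosphate uptake, the citric acid cycle, amino acid breakdown, iron use and cofactor supply to the rest of the cell. Several substrates are served by more than 1 gene, with isoforms that differ between tissues. The heart depends on them because its contraction is fed mainly by mitochondrial ATP, and because the switch from the embryonic to the mature heart goes with a shift from glycolysis to fatty acid oxidation.

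The 44 carriers moved in different directions and at different times. A gene was taken to pass where the adjusted p of limma, Benjamini-Hochberg over all 45101 probe sets, was under 0.05. From E10.5 to young adult, 12 of 44 carriers rose and 17 fell, with a median difference of 0.00 against 0.21 over all genes. Over all 20701 genes, 38.6% rose and 28.5% fell in this comparison, so that 27.3% of the carriers rose and 38.6% fell beside those shares. The background differed with the level: over genes with a stage mean above 5, 27.1% rose and 47.2% fell with a median of -0.34, and of the 33 carriers of that kind 6 rose and 15 fell with a median of -0.16. The larger share of falls among the carriers than among all genes was thus not seen among genes of that level. Within the embryonic series, from E10.5 to E19.5, 12 carriers rose and 12 fell, against 26.2% higher and 23.6% lower over all genes. From E19.5 to young adult, 7 rose and 9 fell, against 14.7% higher and 17.0% lower over all genes.

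These counts depended on the scale. Each array was centred on the median of its probe sets with a mean over all arrays above 5. From E10.5 to young adult 25 carriers then rose and 7 fell, beside 63.6% and 18% of all genes. The median of all genes moved from 0.21 to 0.74. With quantile renormalization the same comparison gave 12 and 12 carriers, beside 31.5% and 23% of all genes. With the level of the hybridization controls as a covariate it gave 9 and 4, beside 13.8% and 13.8%. These controls are bacterial transcripts added to each sample in equal amount, read by 18 probe sets, and their stage mean was 9.90 for E10.5, 11.2 for E19.5, 12.2 for young adult and 11.4 for old adult. The carriers also followed them within stages: over the 36 arrays, after subtracting stage means, the correlation with the control level ran from -0.88 for *Slc25a4* to 0.69 for *Slc25a28*, as a description of arrays that share 1 normalization. Many calls of carriers ended with this covariate, and its values are given beside such results. The control level ran from 9.68 to 10.35 at E10.5 and from 12.03 to 12.43 in young adult, without overlap. Between these stages the covariate raised the median SE over all genes from 0.179 to 0.317. A call that ended with it can therefore reflect the larger SE as well as a smaller difference.

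Sorted by the embryonic and the later difference, the carriers fell into 9 classes. *Slc25a18*, *Slc25a29* and *Slc25a34* rose in both intervals, beside 4.42% of all genes. *Slc25a3*, *Slc25a16* and *Slc25a24* fell in both, beside 7.26%. Of these, the embryonic fall of *Slc25a3* passed with neither rescaling and in 2 of 6 fits that left out 1 array, and the later rise of *Slc25a18* passed in 2 of 6. The embryonic fall of *Slc25a33*, which rose afterwards, passed with neither rescaling and in 1 of 6 such fits, and was 0.04 with the covariate. Over all genes, 2.46% fell and then rose, as *Slc25a33* did. A further 2 carriers rose up to E19.5 and fell afterwards, *Slc25a23* among them, beside 3.36% of all genes. In 7 carriers only the embryonic rise passed and in 8 only the embryonic fall, beside 18.4% and 13.9% of all genes. In 3 only the rise after E19.5 passed and in 4 only the fall after E19.5, beside 7.82% and 6.35%. The remaining 13 carriers passed in neither interval, 29.5% of the carriers beside 36% of all genes. The stage of the highest mean was E10.5 for 15 carriers, young adult for 9, E17.5 for 6 and old adult for 6.

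**Figure D1:**
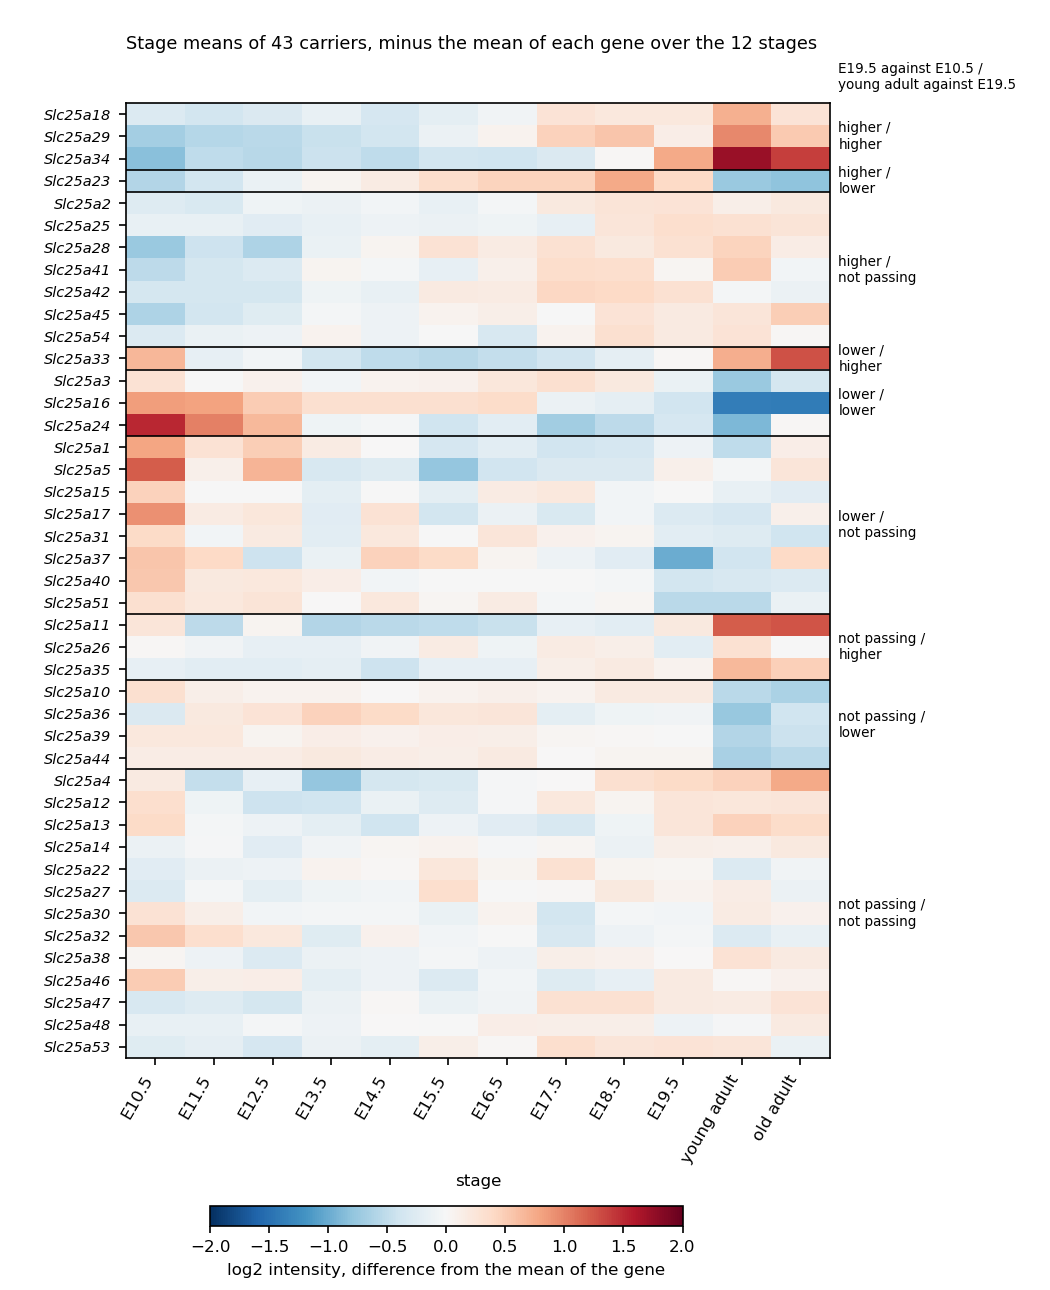
Stage means of 43 of the 44 carriers at the 12 stages, each shown as the log2 difference from the mean of its gene over the stages (red higher, blue lower), and grouped by the calls for E19.5 against E10.5 and for young adult against E19.5, which stand at the right. The 3 carriers of the top block are highest in young adult, whereas *Slc25a16* and *Slc25a24* start high at E10.5 and end low in young adult.

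The threshold of the study, an adjusted p under 1e-05 with a log2 difference above 2 (4-fold) from young adult at 1 or more stages, was reached by 4 of the 44 carriers, beside 10.0% of all genes. These differentially expressed genes (DEGs) included *Slc25a34*, *Slc25a24* and *Slc25a16*. *Slc25a34* passed at 8 stages, E10.5 to E17.5, *Slc25a16* at E10.5 and E11.5, and *Slc25a24* at E10.5. With the limit lowered to 1 log2 step 11 carriers qualified, and with quantile renormalization 2 did, *Slc25a11* and *Slc25a34*.

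*Slc25a34*, an orphan carrier whose substrate is not settled, had the steepest rise of the 44. Its 3 arrays read 4.46, 4.17 and 4.46 (E10.5), 5.69, 6.12 and 6.04 (E19.5) and 6.70, 6.82 and 7.24 (young adult). No array of any embryonic stage reached the lowest young adult array. The level stayed between stage means of 4.64 and 4.90 from E11.5 to E17.5, then went to 5.21 ± 0.28 at E18.5 and 5.95 ± 0.23 at E19.5 (SD, n = 3). From E10.5 to young adult it rose 5.88-fold (log2 difference 2.56, SE 0.204, limma adjusted p = 3.8e-12), with 1.59 of it before E19.5 and 0.97 after. From E16.5 to E19.5 alone it rose by 1.15 (adjusted p = 0.00044). No other carrier rose in that interval in this fit, and 4 in all did with either rescaling or the covariate. The rise from E10.5 to young adult passed with both rescalings and with the hybridization control covariate, under which it was 1.77. The summed intensity of 5 adipocyte markers rose as well, from 36 to 41 at E10.5 to 5071 to 6148 in young adult, but it had reached 1932 to 3039 at E17.5, while *Slc25a34* was still at 4.90. Up to E19.5 the sum was mostly *Fabp4*, which other cells such as endothelium also express (3.17 at E10.5 and 12.03 at E19.5), whereas *Adipoq* (2.32 and 2.40) and *Cfd* (2.83 and 3.13) stayed low until young adult, at 5.14 and 7.53. Their part in the result was not tested. Of those markers, 0 had a mean above 5 in the E10.5 hearts, 1 in those of E19.5 and 4 in young adult hearts.

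*Slc25a29* carries arginine, lysine and other basic amino acids. It read 5.49, 5.53 and 5.75 (E10.5), 6.41, 6.22 and 6.56 (E19.5) and 7.14, 7.52 and 7.01 (young adult), with no overlap between these 3 stages. The stage mean rose at each day from 5.59 at E10.5 to 6.82 at E18.5, stood at 6.40 at E19.5, and was highest in young adult at 7.23. The full span came to 3.11-fold (log2 1.64, SE 0.143, adjusted p = 2.9e-11), and the embryonic (0.81) and the later part (0.83) each passed, in both rescalings and with the covariate too.

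*Slc25a11*, the oxoglutarate carrier of the malate-aspartate shuttle, rose after E19.5. Its arrays read 6.65, 6.65 and 6.56 at E19.5 and 7.67, 7.46 and 7.76 in young adult, a 2.02-fold rise (log2 1.01, SE 0.213, adjusted p = 0.00043). Old adult arrays stood at 8.01, 7.23 and 7.81 and overlapped with those of young adult. Between E10.5 and E13.5 the gene had fallen from 6.66 ± 0.62 to 5.84 ± 0.14, and the E10.5 arrays themselves spread from 5.97 to 7.15. This fall did not pass without the second E10.5 array or with the covariate (-0.38, adjusted p = 0.38). The rise after E19.5 was 1.48 with the covariate. Of the 4 enzymes of the shuttle in the cytosol and matrix, none passed from E19.5 to young adult, with differences from -0.29 for *Mdh1* to 0.80 for *Got1*.

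Smaller rises followed for low-level carriers. *Slc25a18*, a glutamate carrier, rose from 2.95 to 3.93 between E10.5 and young adult (log2 0.98, adjusted p = 1.3e-05), with stage means below 5 throughout. *Slc25a41*, an ATP-Mg/phosphate carrier, had means from 2.54 to 3.57 over the 12 stages, and its 3 young adult arrays were 2.98, 4.08 and 3.64. It rose by 1.02 from E10.5 to young adult (adjusted p = 0.0002). With the covariate the differences from E10.5 to young adult were 0.00 for *Slc25a18* and -0.10 for *Slc25a41*, and neither passed. *Slc25a35*, related to *Slc25a34*, rose from 3.45 at E19.5 to 4.02 in young adult (log2 0.57, adjusted p = 0.011), and this passed in 3 of the 6 fits that left out 1 array and not with the covariate (0.51, adjusted p = 0.069).

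*Slc25a24*, a calcium-regulated ATP-Mg/phosphate carrier, fell most. It read 8.82, 8.90 and 8.22 (E10.5), 7.04, 6.82 and 6.54 (E19.5) and 6.03, 5.97 and 6.69 (young adult). The embryonic arrays of E10.5 lay above all those of E13.5 and later, and most of the fall came early, with a difference of -1.60 between E10.5 and E13.5 (adjusted p = 3e-06). Over the full span it fell 5.33-fold (log2 -2.41, SE 0.216, adjusted p = 5.1e-11), and the difference was -1.0 with the covariate (adjusted p = 0.015). The further fall after E19.5 (-0.57, adjusted p = 0.045) did not pass with either rescaling or with the covariate, where it was 0.06. Proliferation markers fell alongside, with summed intensities of 2412 to 2974 (E10.5), 769 to 1018 (E19.5) and 117 to 161 (young adult), and 6 of 6 markers lower in young adult than at E10.5. Their part in the result was not tested.

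The other calcium-regulated carriers went different ways. *Slc25a23* read 5.20, 5.13 and 5.27 (E10.5), 6.37, 6.15 and 6.03 (E19.5) and 5.36, 4.75 and 5.03 (young adult), so that the E19.5 arrays lay above both other groups. It rose 1.97-fold within the embryonic series (log2 0.98, adjusted p = 1.1e-05) and fell 2.20-fold afterwards (log2 -1.14, adjusted p = 1.5e-06), with its highest stage mean, 6.53 ± 0.15, at E18.5. Both steps passed with the rescalings and the covariate. *Slc25a25* rose by 0.48 from E10.5 to E19.5 (adjusted p = 0.0058), which did not pass with the covariate (0.49, adjusted p = 0.072), and the later difference of -0.03 did not pass. Of the 4 carriers in this group, 3 rose and 1 fell up to E19.5, beside 26.2% and 23.6% of all genes. Among the 3, the low-level *Slc25a41* went from 2.54 to 3.09 (limma adjusted p = 0.04), which passed in 0 of 6 fits that left out 1 array. Its rise passed with median centring (0.89) but not with quantile renormalization (0.33) or the covariate (-0.07). After E19.5 none of the 4 rose and 2 fell, beside 14.7% and 17.0% of all genes.

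*Slc25a16*, a carrier tied to coenzyme A supply, read 7.10, 7.15 and 7.23 (E10.5), 6.42, 5.73 and 5.66 (E19.5) and 5.31, 4.73 and 4.78 (young adult). The stage mean held between 6.63 and 6.82 from E12.5 to E16.5. At E17.5 to E19.5 the arrays parted, with 6.73 and 5.10 as the extremes of E18.5. The gene fell 4.67-fold over the full span (log2 -2.22, SE 0.277, adjusted p = 4.7e-08), but the difference was -0.99 with an adjusted p of 0.15 in the limma fit with the covariate. The fall after E19.5 (-1.0, adjusted p = 0.0063) did not pass without the female E19.5 array or with the covariate (-0.45, adjusted p = 0.29). *Slc25a42*, the other coenzyme A carrier, rose by 0.66 up to E19.5 (adjusted p = 0.0023), which did not pass with the covariate (0.53, adjusted p = 0.12), and the later difference of -0.35 did not pass.

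**Figure D2:**
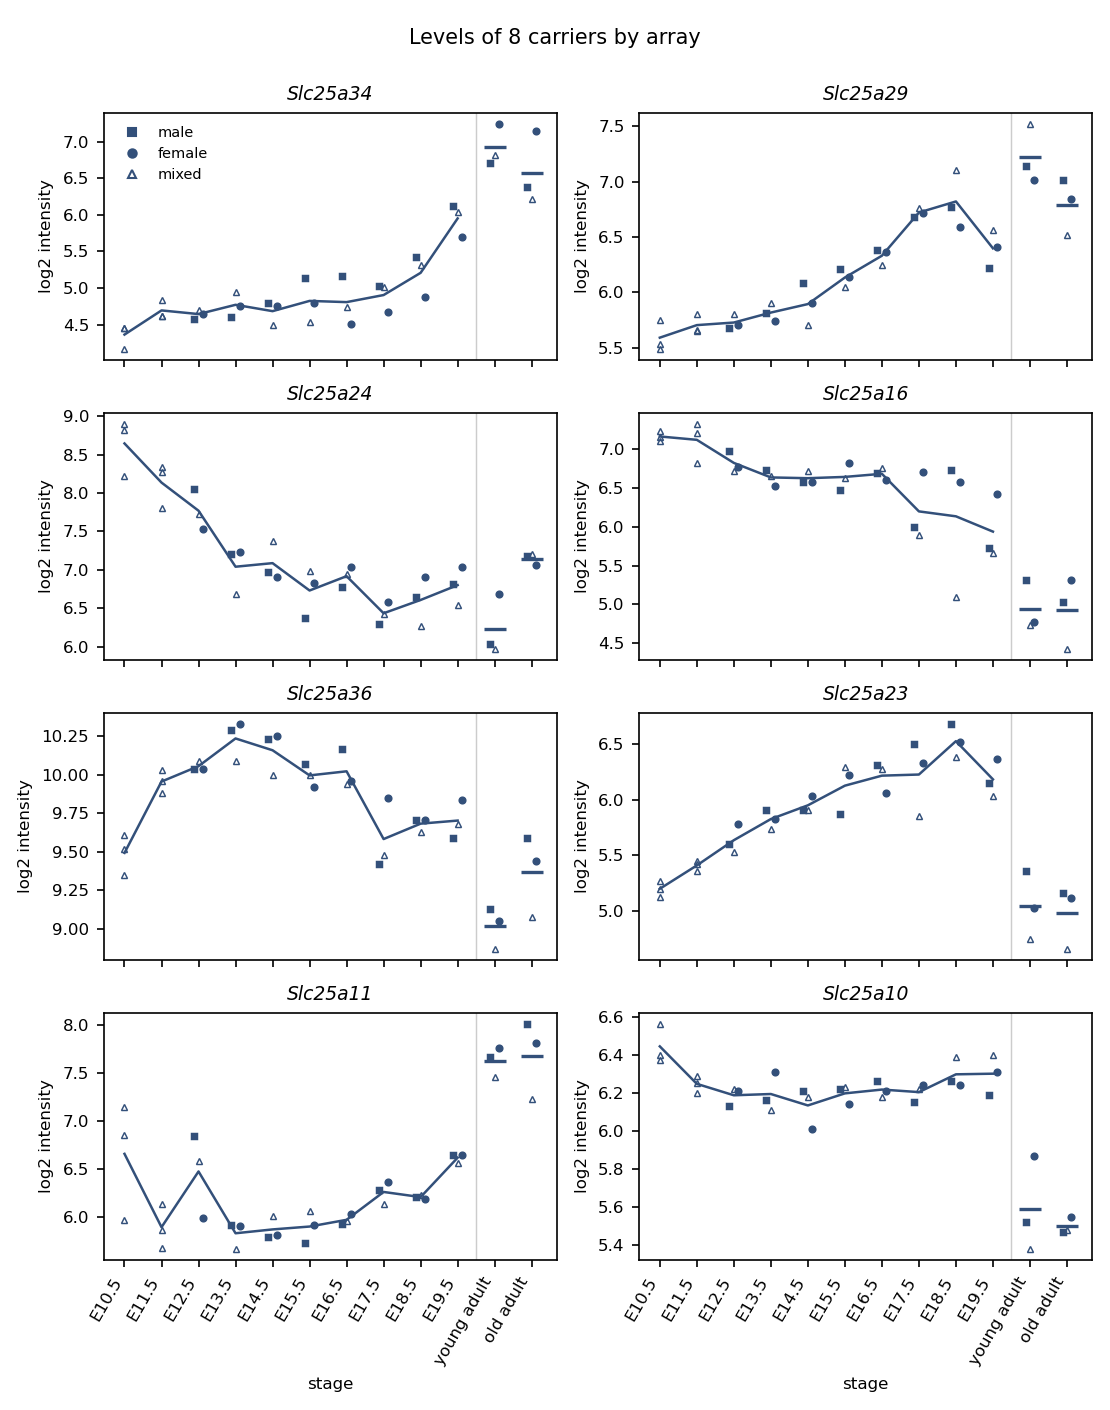
Log2 intensity of 8 carriers on each of the 36 arrays against stage (squares male, circles female, open triangles mixed), with lines through the embryonic stage means and bars at the adult means. *Slc25a34* and *Slc25a29* end highest in young adult, *Slc25a24* falls from 8.64 at E10.5, *Slc25a36* and *Slc25a23* peak at E13.5 and E18.5, and *Slc25a11* and *Slc25a10* part in opposite directions after E19.5.

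ADP/ATP exchange and phosphate uptake feed oxidative phosphorylation. Its carriers comprise *Slc25a4* and *Slc25a5*, 2 adenine nucleotide translocators, the testis-type translocator *Slc25a31*, and the phosphate carrier *Slc25a3*. None of the 4 rose from E10.5 to young adult and 3 fell, beside 38.6% and 28.5% of all genes. Among genes with a stage mean above 5, 27.1% rose and 47.2% fell. *Slc25a5*, the isoform of growing cells, read 11.33, 11.15 and 10.21 (E10.5), 10.07, 10.01 and 9.33 (E19.5) and 9.54, 9.60 and 9.80 (young adult). The E10.5 arrays lay above those of E19.5 and young adult, and the gene fell by 1.25 over the full span (SE 0.336, adjusted p = 0.0021). With the hybridization control covariate this fall turned into a rise of 1.37 (adjusted p = 0.0062), so its direction depends on how that level is treated. Within stages *Slc25a5* went down where the controls went up, with a correlation of -0.85. All 8 probe sets of the gene were lower in young adult than at E10.5. Those with differences of -0.62 and -0.49 did not pass (limma adjusted p = 0.17 and 0.15). After E19.5 the probe set read here had a difference of -0.15 (adjusted p = 0.78), whereas some others fell by 1.33 and 1.39 (adjusted p = 0.0096 and 0.013).

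*Slc25a4*, the translocator of heart and skeletal muscle, read 12.30, 12.20 and 11.54 (E10.5), 12.38, 12.33 and 11.96 (E19.5) and 12.30, 12.41 and 12.16 (young adult). The 3 stages overlapped, and its difference of 0.28 from E10.5 to young adult did not pass (adjusted p = 0.41). In between it fell to 11.06 ± 0.59 at E13.5 (-0.95 from E10.5, adjusted p = 0.016), but the difference was 0.01 with the covariate, and 3 of 6 fits that left out 1 array kept the call. Other probe sets of *Slc25a4* differed. One with a mean of 10.39 at E10.5 rose by 0.53 up to E19.5 (limma adjusted p = 0.002) and fell by 0.4 after it (adjusted p = 0.024). Another, with a mean of 11.67 at E10.5, passed in neither step (0.27 and 0.1). *Slc25a3* fell by 1.03 over the full span (adjusted p = 8.1e-06), from 11.40 to 10.37, and the difference was 0.11 with the covariate. *Slc25a31* stayed near background, with stage means from 2.29 to 3.06.

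Since both translocators follow the control level in the same way, their difference within each array was also taken. *Slc25a4* minus *Slc25a5* averaged 1.12 ± 0.19 for E10.5, 1.69 ± 0.06 for E13.5, 2.61 ± 0.02 for E15.5 and 2.42 ± 0.18 for E19.5 (SD, n = 3). The adult values were 2.64 ± 0.25 and 2.65 ± 0.19. The 3 arrays of E15.5 lay above those of all earlier days, while from E15.5 on the stage ranges stayed between 2.20 and 2.95. Over the 30 embryonic arrays the difference went with embryonic day (Pearson's r = 0.872, Spearman's rho = 0.817, both p = 1e-05 by two-sided permutation, the smallest 100000 resamples can give, adjusted p = 1.5e-05 over 3 pairs). Leaving out the 2 most distant arrays gave r = 0.842, and with the control level taken out it was 0.703. The gap between the probe sets is no ratio of transcripts, as each probe set has its own response, and *Slc25a5* is read by a probe set that may also bind related transcripts. Since some other probe sets of *Slc25a5* fell after E19.5, the adult level of the difference can depend on the probe set.

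**Figure D3:**
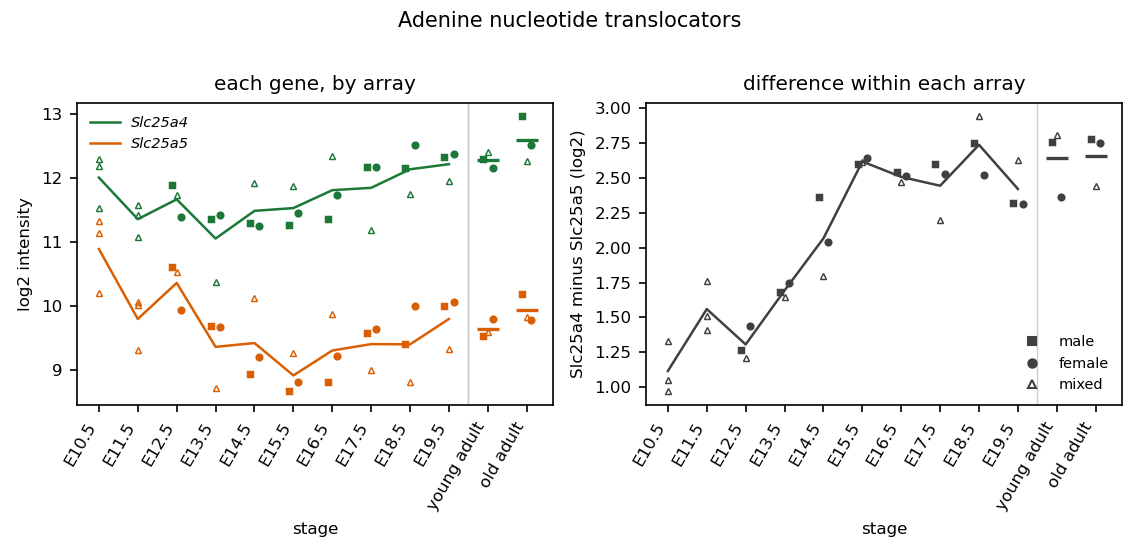
Adenine nucleotide translocators by stage, as log2 intensity of *Slc25a4* and *Slc25a5* on each array (left) and as their difference within each array (right), with squares for male, circles for female, open triangles for mixed arrays and lines or bars for stage means. The difference climbs from 1.12 at E10.5 to 2.61 at E15.5 and is 2.64 in young adult.

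Iron reaches the matrix through 2 mitoferrins, *Slc25a37* in erythroid cells and *Slc25a28* in most tissues. *Slc25a28* read 6.29, 6.34 and 6.68 (E10.5), 7.59, 7.46 and 7.39 (E19.5) and 7.41, 7.57 and 7.90 (young adult). The E10.5 arrays lay below both later groups, and the gene rose by 1.04 up to E19.5 (SE 0.16, adjusted p = 3.9e-06) and 0.15 after, which did not pass. With the covariate the embryonic rise was 0.55 (adjusted p = 0.026), and the rise over the full span went from 1.19 to 0.29, which did not pass (adjusted p = 0.47).

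*Slc25a37* read 6.74, 7.32 and 7.10 (E10.5), 5.59, 5.32 and 5.60 (E19.5) and 6.31, 5.86 and 6.17 (young adult). It fell by 1.55 up to E19.5 (SE 0.286, adjusted p = 5.8e-05; -1.79 with the covariate) and by 1.06 from E16.5 to E19.5 (adjusted p = 0.019; 3 of 6 fits without 1 array kept this call). The path was not even, with a mean of 6.08 ± 0.14 at E12.5 and 6.96 ± 0.31 at E14.5. The summed intensity of 9 erythroid markers was 19341 to 25902 on the E10.5 arrays, 1417 to 2546 on those of E15.5 and 202 to 278 on those of E19.5. Up to E15.5 this sum was mostly the embryonic globins *Hbb-y*, *Hbb-bh1* and *Hba-x*, which fell by 10.13, 9.70 and 7.17 from E10.5 to E19.5, whereas *Alas2* (-0.25, adjusted p = 0.61) and *Hba-a1* (0.41, adjusted p = 0.077) did not pass and *Epb4.2* rose by 0.38 (adjusted p = 0.04). At E15.5 *Slc25a37* was at 6.88 ± 0.39. In old adult hearts the mixed array had 7.93 for *Slc25a37* and a marker sum of 1502, whereas the male and female arrays had 6.53 and 6.23 with sums of 184 and 194. The part of blood cells in these values was not tested.

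The within-array difference *Slc25a28* minus *Slc25a37* had a mean of -0.61 ± 0.31 for E10.5 and 1.98 ± 0.17 for E19.5, and followed embryonic day over 30 arrays (r = 0.847, rho = 0.845, both permutation p = 1e-05, adjusted p = 1.5e-05). Pearson's r was 0.818 without the 2 farthest arrays and 0.691 with the control level taken out. In young adult the difference was 1.51 ± 0.36 and in old adult 0.42 ± 0.86. Of 14 genes of haem and iron-sulphur synthesis, 1 rose and 7 fell from E10.5 to E19.5, from 0.37 for *Ppox* to -1.72 for the coproporphyrinogen oxidase *Cpox* (adjusted p = 4.7e-10). In this span 26.2% of all genes rose and 23.6% fell, and 24.1% and 39.0% of those with a stage mean above 5. From E19.5 to young adult 3 of the 14 rose, led by the ferrochelatase *Fech* with 1.26, and 1 fell. Over all genes 14.7% rose and 17.0% fell after E19.5.

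**Figure D4:**
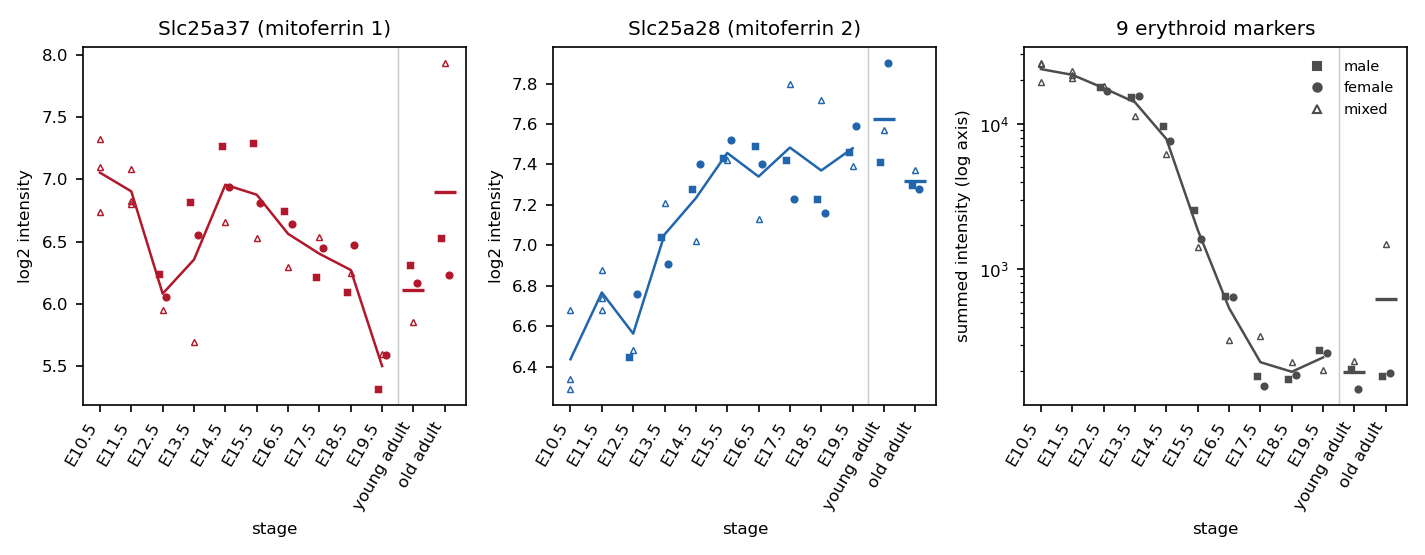
Log2 intensity of *Slc25a37* (left) and *Slc25a28* (middle) and the summed intensity of 9 erythroid markers on a log axis (right) on each of the 36 arrays (squares male, circles female, open triangles mixed, lines and bars for stage means). The marker sum falls from E13.5 to E17.5, *Slc25a37* is lowest at E19.5, and the old adult mixed array is high for both.

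Among the citrate, dicarboxylate and oxoglutarate carriers, *Slc25a1*, which exports citrate for lipid synthesis, had means of 5.62 ± 0.33 (E10.5), 4.73 ± 0.09 (E19.5) and 4.33 ± 0.59 (young adult). The difference from E10.5 to young adult was -1.29 (adjusted p = 2.8e-06), and -0.48 with the covariate, which did not pass (adjusted p = 0.39). *Slc25a10*, the dicarboxylate carrier of malate and succinate, was level in the embryo and stepped down afterwards. Its arrays read 6.31, 6.19 and 6.40 at E19.5 and 5.52, 5.38 and 5.87 in young adult, without overlap, a difference of -0.71 (SE 0.111, adjusted p = 7.1e-06) that kept its call with the rescalings and the covariate. Of 17 citric acid cycle enzymes, 1 rose and 4 fell in the same interval, beside 14.7% and 17.0% of all genes.

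The aspartate/glutamate carriers *Slc25a12* (aralar) and *Slc25a13* (citrin), which drive the malate-aspartate shuttle, did not pass over the full span, with differences of -0.12 and 0.09. Both fell between E10.5 and E13.5, with differences of -0.74 (adjusted p = 0.009) and -0.57 (adjusted p = 0.0089). Neither passed with the covariate (-0.31 and -0.44) or without the second E10.5 array, and the fall of *Slc25a13* passed with neither rescaling. Other probe sets of *Slc25a12* went other ways. One with a mean of 5.77 at E10.5 rose by 0.92 up to E19.5 (limma adjusted p = 0.0006) and fell by 0.62 after it (adjusted p = 0.022). Another, with a mean of 4.41 at E10.5, fell by 0.66 over the full span (adjusted p = 0.0015). From the probe sets read here, the within-array difference *Slc25a12* minus *Slc25a13* had r = 0.365 and rho = 0.39 with embryonic day (permutation p = 0.048 and 0.035, adjusted p the same over 3 pairs). It had r = 0.322 with permutation p = 0.094 without the 2 farthest arrays. The correlation was of similar size without those arrays and no longer passed. *Slc25a22*, a glutamate carrier, had stage means from 6.22 to 6.80 and passed in none of the 3 main comparisons.

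Of the 5 other amino acid carriers, 2 rose and 2 fell from E10.5 to young adult, beside 38.6% and 28.5% of all genes. *Slc25a44*, a carrier of branched-chain amino acids, fell from 6.05 to 5.35 after E19.5 (-0.70, adjusted p = 0.00045), and its arrays of 6.0, 6.01 and 6.14 did not overlap with 5.26, 5.35 and 5.43. A second probe set for this gene, with a highest stage mean of 5.93, went the other way by 0.85 (adjusted p = 0.0015), so the direction depends on the probe set. The ornithine carrier *Slc25a15* fell by 0.62 from E10.5 to young adult (adjusted p = 0.0063), which passed with neither rescaling nor the covariate (-0.06, adjusted p = 0.94), while its other probe set, with means up to 2.72, rose by 0.68. *Slc25a38*, a glycine carrier needed for haem synthesis, did not pass in the 3 main comparisons.

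Of the 11 cofactor, nucleotide and glutathione carriers, 0 rose and 7 fell from E10.5 to young adult, with a median of -0.79. Over all genes 28.5% fell with a median of 0.21, and over genes with a stage mean above 5 47.2% fell with a median of -0.34. Of the 7 falls, only those of *Slc25a16* and *Slc25a17* passed with both rescalings. With the covariate only that of *Slc25a17* passed (-1.39, limma adjusted p = 0.044), and *Slc25a32* had a rise of 1.03 (adjusted p = 0.027). *Slc25a17*, the peroxisomal carrier of coenzyme A and other cofactors, fell by 1.25 (adjusted p = 0.00014) and stood at 4.80 ± 0.20 by E15.5, against 6.07 ± 0.47 at E10.5. Its second probe set, with means up to 3.18, rose by 0.62. *Slc25a33*, a pyrimidine nucleotide carrier, fell from 5.10 ± 0.06 at E10.5 to 3.87 ± 0.16 at E15.5 and came back to 5.16 ± 0.40 in young adult. Its rise of 0.70 after E19.5 (adjusted p = 0.039) was 1.24 with the covariate and passed in 3 of 6 fits without 1 array.

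*Slc25a36*, the other pyrimidine nucleotide carrier, had its highest mean at E13.5, 10.24 ± 0.13, and fell from 9.70 to 9.02 after E19.5 (-0.69, adjusted p = 0.00012). This path depends on the probe set. Another one, with a mean of 6.43 at E10.5, fell by 1.53 up to E19.5 (limma adjusted p = 3.9e-05) and by 1.34 after it (adjusted p = 0.00032). One with a mean of 5.19 at E10.5 fell by 1.21 over the full span (adjusted p = 3.8e-05). The glutathione carrier *Slc25a39* fell after E19.5 from 10.70 to 10.13 (-0.56, adjusted p = 0.0025), and no young adult array reached the lowest E19.5 array. This did not pass with the covariate or with the mean of the probe sets of the gene. *Slc25a40*, its paralogue, fell earlier, with a difference of -0.91 up to E19.5 (adjusted p = 0.00058). The NAD carrier *Slc25a51* fell by 0.85 in that span (adjusted p = 0.00036), with a difference of -0.70 between E16.5 and E19.5 (adjusted p = 0.016). With the covariate neither difference from E10.5 to E19.5 passed (-0.26 and -0.21), while that of *Slc25a51* from E16.5 to E19.5 did (-0.68).

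Among carriers of unknown or other role, 4 of 8 rose and 1 fell from E10.5 to young adult. Over all genes 38.6% rose and 28.5% fell. *Slc25a45* rose between E10.5 (5.77 ± 0.18) and E19.5 (6.56 ± 0.23; 0.79, adjusted p = 0.00013), and its arrays of the 2 stages did not overlap. *Slc25a46*, an outer membrane protein that takes part in mitochondrial fission and fusion, fell by 0.48 (adjusted p = 0.045), which passed in 1 of 6 fits without 1 array and was a rise of 1.05 with the covariate. The uncoupling-protein-like carriers *Slc25a14*, *Slc25a27* and *Slc25a30* passed in none of the comparisons within the embryo. For *Slc25a30* this depends on the probe set. Another one, with a mean of 5.93 at E10.5, fell by 1.41 up to E19.5 (adjusted p = 0.0012) and rose by 1.02 after it (adjusted p = 0.022). *Slc25a27* rose by 0.42 from E10.5 to young adult (adjusted p = 0.015). This rise passed in 3 of 6 fits without 1 array, and neither with quantile renormalization (0.16) nor with the covariate (-0.16, adjusted p = 0.73).

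**Figure D5:**
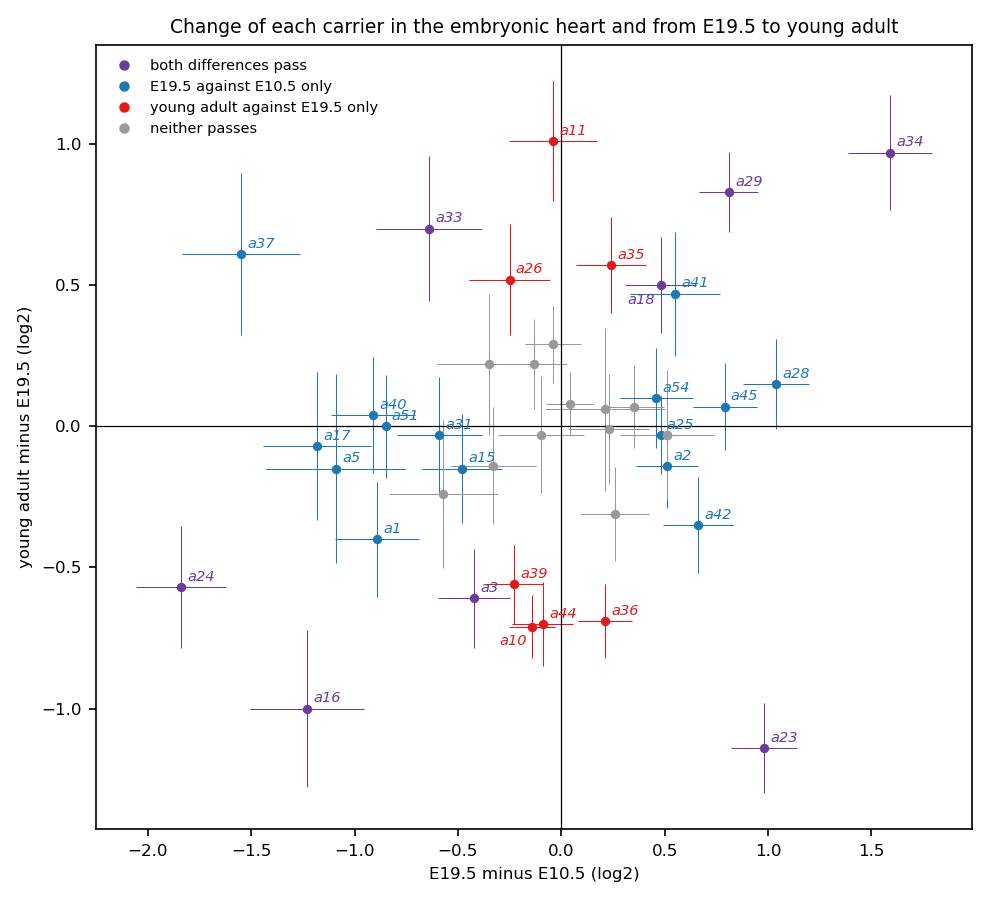
Log2 difference of 43 of the 44 carriers from E10.5 to E19.5 (horizontal) and from E19.5 to young adult (vertical), with bars of 1 SE and colours for the differences that pass at an adjusted p under 0.05. *Slc25a34* lies at the upper right (1.59 and 0.97), *Slc25a24* and *Slc25a16* at the lower left, *Slc25a23* at the lower right and *Slc25a37* at the left (-1.55). Both axes use the E19.5 arrays.

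The embryonic series was also compared by interval. From E10.5 to E13.5, 5 of 44 carriers rose and 13 fell, beside 11.2% and 13.9% of all genes. This count of 13 was 8 without the first E10.5 array and 4 without the second, and both arrays had lower hybridization control levels than the third (9.68 and 9.68 against 10.3). From E13.5 to E16.5 no carrier passed in limma, 6 did at an unadjusted p under 0.05, and 1.6% of all genes rose and 1.36% fell. From E16.5 to E19.5, *Slc25a34* rose and 3 carriers fell, *Slc25a37* and *Slc25a51* among them, beside 2.62% higher and 5.92% lower over all genes. With the covariate 2 rose and 2 fell from E10.5 to E13.5 and 4 rose and 3 fell from E16.5 to E19.5, so the interval with more calls depends on it.

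In old against young adult hearts 1 of 44 carriers passed, beside 4.46% of all genes higher and 3.13% lower, and 11 had an unadjusted p under 0.05. This was *Slc25a24*, with 6.03, 5.97 and 6.69 in young and 7.18, 7.20 and 7.06 in old adult. All old arrays lay above all young arrays, and the rise was 0.92 (1.89-fold, SE 0.216, limma adjusted p = 0.009). It did not pass without the mixed young adult array, in the fit of the 6 adult arrays alone (with or without the sex label as a block), with the covariate (0.42, adjusted p = 0.19) or with the mean of both probe sets. Leukocyte markers rose too, with 3 of 6 passing and summed intensities of 1248 to 1516 in young and 1535 to 2528 in old adult, as did 2 of 6 endothelial markers, and their part in the result was not tested. *Slc25a37* was 0.78 higher (adjusted p = 0.09) with overlapping arrays.

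Sex was compared in 9 male and female pairs of arrays, 1 for each stage from E13.5 on. No carrier passed in limma, 3 had an unadjusted p under 0.05, and 9 genes, 0.0435% of all, passed. The differences of the 44 carriers ran from -0.23 to 0.21.

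Genes around the carriers were described from lists. Of 8 genes that import carrier precursors into mitochondria, none rose and 5 fell from E10.5 to young adult (28.5% of all genes and 47.2% of those with a stage mean above 5 fell), led by the small chaperone *Timm9* (-2.32, adjusted p = 1e-07), which went from 5.51 at E19.5 to 3.05 in young adult. Of 5 genes for outer membrane channels and the pyruvate carrier, which belongs to another family, 2 rose and 2 fell over the full span. Over all genes 38.6% rose and 28.5% fell. The pyruvate carrier subunit *Mpc1* rose by 2.65 (adjusted p = 4.5e-07), of which 1.98 came after E19.5, and the channel *Vdac2* fell by 1.48 (adjusted p = 0.00027). Of 5 relatives with other symbols, 2 rose and 1 fell over the full span, beside the same shares of all genes. The largest rise was 0.73 for the uncoupling protein *Ucp3* (adjusted p = 0.011), whose stage means of 3.34 to 4.07 were low. *Mtch1* fell by 0.83 (adjusted p = 0.013).

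Promoter sequence, from 250 bases before to 50 after the start of each gene, was held by RefSeq (GRCm38.p6) for 33 of the 44 carriers. It was searched on both strands for 2 elements of regulators of mitochondrial genes. The element of the oestrogen-related receptors, TNAAGGTCA, matched 0 of 33 carriers and 1.43% of 27025 genes. The nuclear respiratory factor 1 element, GCGC, any 2 bases and GCGC, matched 3 of 33 (9.09%), *Slc25a3*, *Slc25a10* and *Slc25a31*, and 7.0% of all genes. The windows around these matches are shown 5′ to 3′ on the strand of each gene, with the match in capitals, since 2 of the genes fell after E19.5 and the third stayed near background.
Slc25a3, chr10:91124162-91124191, minus strand: ctttggatctGCGCCTGCGCagtaggaatc
Slc25a10, chr11:120491858-120491886, plus strand: ccccggggctGCGCGGGCGCattggctgt
Slc25a31, chr3:40708816-40708845, plus strand: gccgttgggcGCGCCTGCGCagcttttccg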

How the data were processed

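Total RNA of mouse hearts was measured on 36 arrays, 3 at each of 12 stages. The deposited values are log2 intensities that the authors obtained by robust multi-array average (background correction, normalization between arrays and summary per probe set), and the submitters' processing notes name Affymetrix Expression Console and Partek 6.6. They were used as deposited. Array medians lay between 4.00 and 4.20, and the number of arrays limits the precision. Of 45101 probe sets, 6937 carry no gene ID. Each gene was read from its probe set with the highest mean.

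Stages were compared in limma 3.58.1 (R 4.3.3) with 1 mean per stage over all 36 arrays, eBayes moderation (6.96 prior degrees of freedom) and adjusted p by Benjamini-Hochberg over all probe sets. Sex was compared over 9 male and female pairs with stage as a block. Permutation tests used Python 3.11.15 and numpy 2.4.6. In simulated data for E10.5 against young adult over 45101 probe sets, 10 of 67 changes of 0.5, 50 of 67 of 1 and 66 of 66 of 2 log2 steps were recovered, with 5 false calls. The simulated noise was independent for each probe set, without a level shared within an array. These counts therefore do not give the rate of false calls in the real arrays. The methods describe each replicate as a separate pup or a mixed-sex pool. The titles of the labels change their form within E16.5, and a batch behind this cannot be told apart from the later stages. Named are carriers past the threshold of the study, the 5 highest and 5 lowest that passed in each main comparison, those that passed with age, the 5 with the highest means and the 3 isoform pairs. *Slc25a5*, *Slc25a32* and *Slc25a39* were read from probe sets that may bind related transcripts. *Slc25a21* and *Slc25a43* were not analysed here. The values of 1 carrier and 1 enzyme that the counts include are not reported here. The members and the gene lists were chosen with earlier results of these data known. Alternatives covered normalization, filter, probe set, fit, covariate and each array left out.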

Additional observations from a re-analysis of the deposited data

Results flagged for a closer look

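*Slc25a3*, the phosphate carrier, had a male minus female difference that was negative in each of the 7 embryonic pairs from E13.5 on (mean -0.13 log2) and positive in both adult pairs (mean 0.09). The young adult pair differed by 0.02, and the E12.5 pair, which the sex comparison of the study leaves out, had 0.15, opposite to the later embryonic pairs. The difference between embryonic and adult hearts was not tested, and over all 9 pairs the sex difference of -0.08 did not pass in limma (adjusted p = 0.81).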

How the results depend on the processing

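Of 51 results for named carriers, 44 kept direction and call with quantile renormalization, 44 with median centring, 44 in the fit of the 6 arrays of the 2 stages, 48 with the probe set of highest variance, 42 with the mean of all probe sets and 23 with the hybridization control covariate. With that covariate the differences from E10.5 to young adult and to E19.5 became 1.37 and 0.36 for *Slc25a5*, 0.11 and 0.21 for *Slc25a3* and -0.10 and -0.07 for *Slc25a41*, those to E19.5 were -0.06 for *Slc25a18* and 0.04 for *Slc25a33*, and that after E19.5 was 0.06 for *Slc25a24*. The probe set of highest variance gave 1.77 and 0.85 for *Slc25a44* against E10.5 and E19.5 and 0.27 for *Slc25a3* at E19.5, and median centring gave 0.05 for *Slc25a36*. The cause was not tested.

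Counts of carriers moved as follows. With the covariate, 4 fell from E10.5 to young adult, 7 rose and 3 fell to E19.5, 11 rose after E19.5, 2 rose and 2 fell from E10.5 to E13.5, 1 rose from E13.5 to E16.5, 4 rose from E16.5 to E19.5, and 0 rose and 1 fell with age. Over all genes, 10.1% rose and 10.6% fell from E10.5 to E19.5 with the covariate, and 16.6% rose after E19.5. Median centring gave 25 higher and 7 lower over the full span, beside 63.6% and 18% of all genes. It gave 21 higher at E19.5 than at E10.5, beside 55.8% of all genes. It also gave 4 higher from E16.5 to E19.5 and 1 lower with age. With the expression filter before the model 6 rose over the full span, 2 from E13.5 to E16.5 and 4 from E16.5 to E19.5, and 2 rose and 1 fell with age. Quantile renormalization gave 4 higher from E16.5 to E19.5, 2 higher and 1 lower with age, and 2 carriers past the threshold of the study, against 11 at 1 log2 step and 7 with any probe set. The mean of all probe sets gave 1 and 2 higher from E13.5 to E16.5 and E16.5 to E19.5, and the probe set of highest variance 2 higher and 1 lower with age. The 6 arrays alone gave 2 higher in each of these intervals, 4 higher after E19.5 and 0 with age. At an adjusted p under 0.001, 10 fell over the full span, 5 rose and 7 fell to E19.5, 3 rose and 4 fell after it, 2 rose and 1 fell from E10.5 to E13.5, 1 fell from E16.5 to E19.5 and 0 rose with age.

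Leaving out 1 array gave 7 to 11 lower at E19.5 than at E10.5, 3 to 6 higher after E19.5, 4 to 13 lower at E13.5, and with age 0 to 2 higher and 0 to 1 lower. The fall counted from E10.5 to E19.5 was 7 without the first E10.5 or the mixed E19.5 array, and the rises after E19.5 were 3 without the male E19.5 array and 4 without the female young adult array. With the sex label as a replicate block, 4 rose after E19.5 and 0 with age, where arrays of the same label correlated at -0.002 to 0.194 in their deviations, so that they share only a label. For *Slc25a12* minus *Slc25a13*, r was 0.322 without the 2 farthest arrays and 0.268 with the control level taken out, an alternative added after seeing the data (p = 0.15, permutation).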
